A study of Homo sapiens with 12 samples.

Results

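The cytosolic heat shock genes described here are 10 chaperone genes of the cytosol that are textbook targets of heat shock factor 1 (HSF1): HSPA1A, HSPA1B, HSPH1, DNAJB1, DNAJA1, HSP90AA1, HSP90AB1, HSPB1, HSPA8 and BAG3. The rule selects them by symbol and uses no measured value, although the set was proposed with earlier results of these data known, and 10 of 10 were listed in the table of each of the 2 cell lines, among 11070 genes for 23132/87 and 11554 for SW48. mRNA was sequenced in 23132/87, an established gastric adenocarcinoma line, and SW48, an established colorectal adenocarcinoma line. The labels give the genotype of every library as wild type. Each line received either 10 µM myricone C, a neolignan from Myristica fragrans according to the series title, or the vehicle that both groups had in common (0.1% DMSO) for 48 h, which gives 4 groups of 3 libraries. The labels call the replicates biological without saying whether they were separate cultures or days, so p-values measure the spread between these libraries.

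Cytosolic chaperones bind unfolded or partly folded proteins and help them reach or regain their folded form. HSP70 proteins do so in cycles of ATP binding and hydrolysis, J-domain proteins bring them substrates and start hydrolysis, and nucleotide exchange factors release the substrate. HSP90 completes the folding of kinases, steroid receptors and other clients, and small heat shock proteins hold unfolded proteins in solution. HSF1 is held inactive by chaperones, is freed when unfolded protein accumulates in the cytosol, and then binds heat shock elements, which are runs of GAA in alternating orientation. Tumour cells often hold high levels of these chaperones.

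The heat shock elements of the member promoters are shown first, because they are what the rule's transcription factor reads. Sequences are from RefSeq (GRCh38.p14), in windows of 300 bases, with 250 before and 50 after each annotated start, and 10 of 10 members matched by symbol, with 1 to 3 windows each. The motif of 3 units, GAANNTTCNNGAA on either strand, was found in 172 of 35116 promoter windows (0.490%). Counted by gene, it was in 166 of 27305 genes with a window (0.608%) and in 4 of the 10 members. Those were DNAJA1, HSP90AA1, HSP90AB1 and HSPA8. Capitals mark the match, and positions count from the start site.
HSPA8 (chr11:123062171-123062200, minus strand, match at -55 to -43): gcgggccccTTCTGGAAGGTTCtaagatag
HSPA8 (chr11:123062346-123062375, minus strand, match at -230 to -218): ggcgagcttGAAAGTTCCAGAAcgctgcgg
HSP90AA1 (chr14:102087112-102087141, minus strand, match at -88 to -76): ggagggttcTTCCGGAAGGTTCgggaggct
HSP90AB1 (chr6:44247744-44247823, plus strand, match at -165 to -153): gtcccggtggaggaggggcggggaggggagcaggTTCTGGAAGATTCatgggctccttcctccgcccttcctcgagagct
HSP90AB1 (chr6:44247822-44247851, plus strand, match at -112 to -100): ctgagattgTTCTGGAAGCTTCtggattct
DNAJA1 (chr9:33025267-33025296, plus strand, match at 4 to 16): cgccgggcgGAACTTTCCAGAAcgctcggt

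The stretches of HSPA8, HSP90AA1 and DNAJA1 overlap an exon in GENCODE release 29, and those of HSP90AB1 lie inside the gene but in no annotated exon. A shorter motif of 2 units, GAANNTTC or TTCNNGAA, which every match of 3 units also holds, was in 13.5% of all windows and in 8 of the 10 members. That 13.5% is a share of windows, not of genes, and some members have several windows. HSPA1A, HSPA1B, HSPB1 and DNAJB1 have the 2-unit motif alone, and HSPH1 and BAG3 have neither in these windows. The shorter matches, with their surroundings, are given for comparison with the longer ones.
HSPA1A (chr6:31815426-31815455, plus strand, match at -106 to -99): cgaaaaccctgGAATATTCccgacctggca
HSPA1B (chr6:31827597-31827676, plus strand, match at -105 to -98): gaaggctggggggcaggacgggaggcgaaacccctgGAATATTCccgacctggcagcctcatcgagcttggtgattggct
HSPB1 (chr7:76302455-76302534, plus strand, match at -182 to -175): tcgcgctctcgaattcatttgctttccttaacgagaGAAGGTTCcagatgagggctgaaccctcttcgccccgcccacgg
DNAJB1 (chr19:14518431-14518510, minus strand, first match at -77 to -70): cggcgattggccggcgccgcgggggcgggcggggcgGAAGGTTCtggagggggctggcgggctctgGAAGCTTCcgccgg

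These windows hold only part of each regulatory region, and a match is a string of letters, not a measured binding site.

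Levels are given on the scale of the deposited signal, whose unit is not stated and whose values look corrected for both gene length and sequencing yield. The listed values of a library summed to between 464037 and 536594, and read depth is unknown. Mitochondrial pseudogenes took 13.4% to 15.6% of the signal in 23132/87 libraries, with overlapping groups. In SW48 they took 16.6% to 18.1% in vehicle and 13.5% to 15.3% in treated libraries, without overlap. Results rescaled without them are given in the closing section. Members are compared between groups within a line, and levels of the 2 lines are set side by side without a test, since each table was filtered and may have been normalized on its own. One library stood apart. In SW48 myricone C replicate 1, 7SL and small nuclear RNA made up 5.26% of the signal, against 0.049% to 0.204% in the other SW48 libraries, and it was the highest of the treated SW48 libraries for 6 of the 10 members. Of 6 epithelial markers 6 were listed in each line, of which 4 fell and 1 rose in 23132/87 and 0 fell and 4 rose in SW48. Of 6 gastric markers 1 (TFF1) was listed in 23132/87 and 0 in SW48, and of 6 intestinal markers 4 were listed in 23132/87 and 3 in SW48. Of 5 leukocyte markers, CD68 alone was listed, in 23132/87, at 3.95 to 6.48 in vehicle and 12.9 to 14.8 in myricone C. Of 5 mesenchymal markers, 1 was listed in each line, COL1A1 in 23132/87 and ACTA2 in SW48, and neither passed the test. The part of these shifts in the members' changes was not tested. A marker that is not listed lay at or under about 1 in at least 1 library of that line.

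In 23132/87 cells, transcripts of 10 of 10 members fell, by a median of 1.66 on the log2 scale, with a range from 0.65 for BAG3 to 2.24 for HSPA1A. In SW48 cells 7 of 10 fell, and the median change over the 10 was -0.60. The change was more negative in 23132/87 for 10 of 10 members, and the difference between the lines passed the test for 9. Of all genes, 12.7% were called for that difference, 5.33% with the SW48 change above the 23132/87 change. The median difference over all genes (SW48 change minus 23132/87 change) was -0.09. Calls are limma tests on log2(value + 1) with Benjamini-Hochberg adjustment over all genes, at an adjusted p under 0.05. Of all genes, 46.5% were called in 23132/87 (23.2% lower) and 29.3% in SW48 (19.2% lower), and the medians over all genes were 0.01 and -0.08. Members called lower in both lines numbered 7 of 10, against 12.0% of the 10264 genes listed in both tables. In bulk RNA, less transcript per cell and fewer cells that hold it cannot be told apart.

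**Figure D1:**
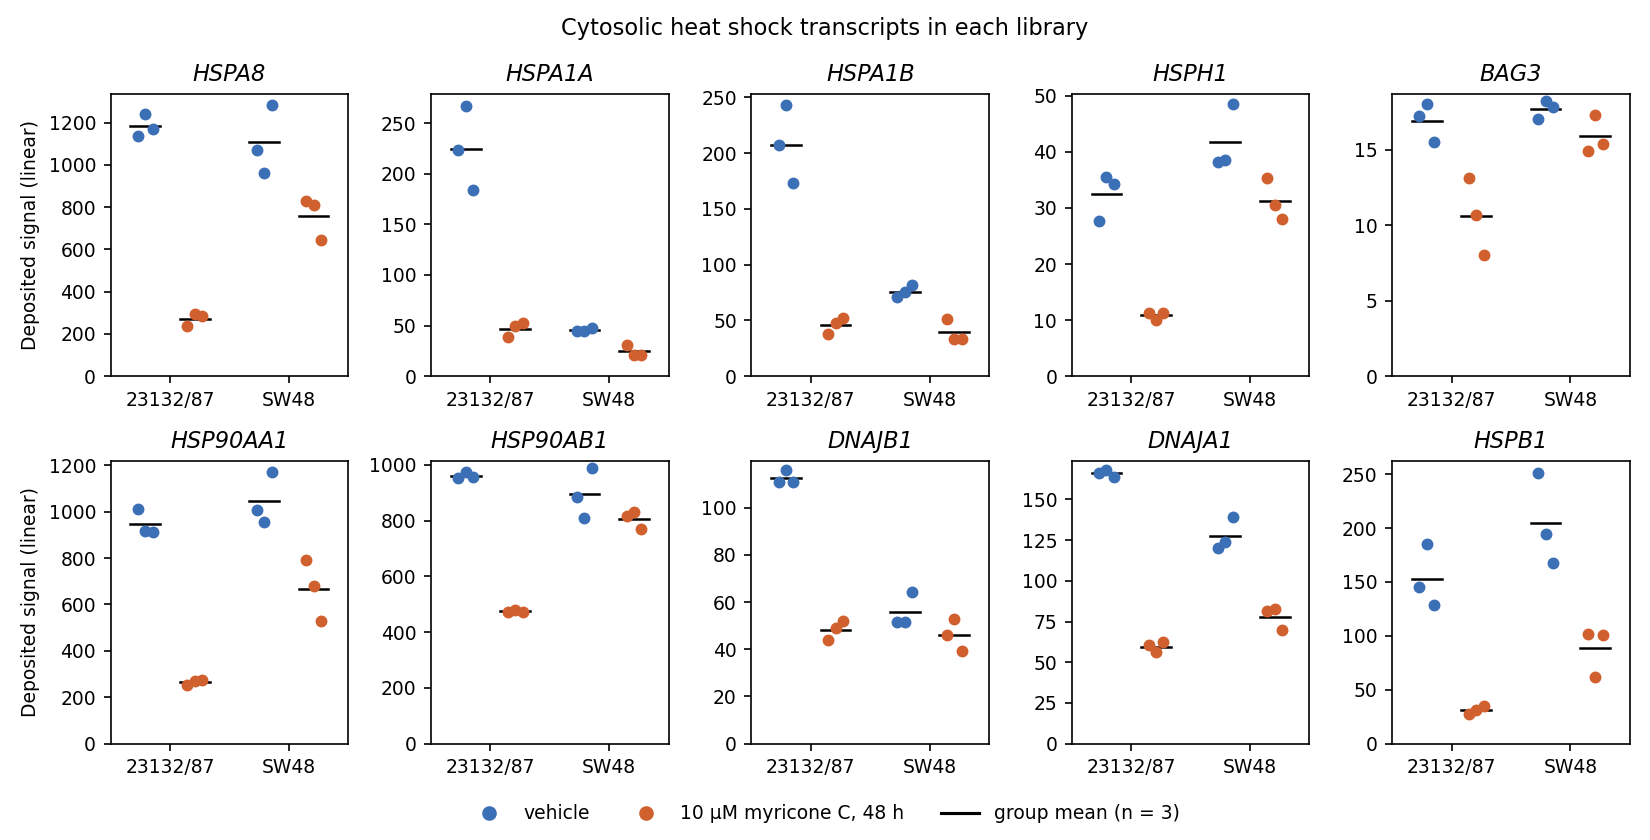
Deposited signal of the 10 cytosolic heat shock genes in each of the 12 libraries, on a linear axis from 0, with 1 panel per gene, a point per library (blue vehicle, orange myricone C) and a bar at each group mean. In 23132/87 the treated points lie below the vehicle points in 10 of 10 panels, and in SW48 they overlap for DNAJB1, HSP90AB1 and BAG3. Of all genes, 27.9% in 23132/87 and 28.4% in SW48 had every treated library below every vehicle library.

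The members with the steepest falls in 23132/87 were the stress-inducible HSP70 genes, the small heat shock gene HSPB1 and the constitutive HSP70 gene HSPA8. HSPA1A (ENSG00000204389, chr6:31815464-31817946) read 223, 267 and 184 in the vehicle libraries of 23132/87 and 38.4, 49.5 and 52.3 in the myricone C libraries. Its treated mean was 20.8% of the vehicle mean, a change of -2.24 ± 0.15 (SE, limma adjusted p = 5.82e-06). This was the 14th steepest fall among 11070 genes, and every treated library lay below every vehicle library, as in 27.9% of all genes.

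HSPA1B (ENSG00000204388, chr6:31827735-31830255), the neighbouring gene for the same inducible HSP70 protein, read 207, 243 and 173 in vehicle and 37.7, 48.0 and 52.1 in treated 23132/87 cells. Its change was -2.15 ± 0.15 (SE, limma adjusted p = 6.14e-06). In SW48, HSPA1A read 44.5, 44.8 and 47.8 in vehicle and 31.2, 21.1 and 21.1 with myricone C, a change of -0.90 ± 0.15 (SE, limma adjusted p = 0.00154). Treated libraries lay below the vehicle libraries for both genes in both lines, as in 28.4% of all genes in SW48, and the treated SW48 library nearest to vehicle was replicate 1. HSPA1B in SW48 went from 70.8, 75.4 and 81.5 to 51.2, 33.6 and 33.3, a change of -0.96 ± 0.16 (SE, limma adjusted p = 0.00145).

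HSPA1A and HSPA1B lie 9789 bp apart, and their coding sequences of 1923 bases differ at 4 bases (99.8% identity) and at 0 of 641 residues. Reads from the coding part can therefore fit both genes, and how such reads were assigned is not stated. The level of either gene alone is uncertain, so their sum is given as well. The sum went from 432 ± 76.3 to 92.7 ± 14.7 in 23132/87 and from 122 ± 7.06 to 63.8 ± 16.0 in SW48 (SD, n = 3). HSPA1B stood at 0.926 ± 0.013 of HSPA1A in vehicle 23132/87 cells and at 1.66 ± 0.060 in vehicle SW48 cells (SD, n = 3).

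HSPA8 (ENSG00000109971, chr11:123057489-123063230) encodes HSC70, the HSP70 that cells make without stress. It read 1139, 1239 and 1169 in vehicle and 238, 295 and 284 in treated 23132/87 cells, so that 23.0% of the vehicle mean was left. The change was -2.12 ± 0.12 (SE, limma adjusted p = 2.59e-06), 21st among the falls in that line. In SW48 it went from 1072, 962 and 1286 to 828, 809 and 645, a change of -0.54 ± 0.14 (SE, limma adjusted p = 0.015). Its groups did not overlap in either line, but the SW48 call was lost without vehicle replicate 3 (-0.43, limma adjusted p = 0.0773). HSPA8 had the largest difference between the lines of the 10 members, 1.58 ± 0.19 (SE, SW48 change minus 23132/87 change, limma adjusted p = 0.00024). Of all genes tested for that difference, 12.7% were called, 5.33% with the SW48 change above the 23132/87 change and 7.39% with it below.

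The balance of inducible to constitutive HSP70 transcripts was read from their ratio. The sum of HSPA1A and HSPA1B stood at 0.365 ± 0.054 of HSPA8 in vehicle and 0.339 ± 0.025 in treated cells, with overlapping libraries (SD, n = 3). In SW48 that ratio was 0.111 ± 0.013 in vehicle and 0.0838 ± 0.016 in treated cells, and the groups did not overlap. These ratios are given without a test.

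HSPB1 (ENSG00000106211, chr7:76302544-76304295) encodes HSP27, a small heat shock protein that binds unfolded proteins without ATP. It read 145, 185 and 129 in vehicle and 27.8, 31.5 and 35.3 in treated 23132/87 cells, a change of -2.23 ± 0.14 (SE, limma adjusted p = 4.09e-06). It was 15th in the order of falls, next to HSPA1A. In SW48, HSPB1 had the largest fall of the 10 members, from 251, 194 and 168 to 102, 62.2 and 101, a change of -1.22 ± 0.20 (SE, limma adjusted p = 0.00121). It ranked 94th among the falls of 11554 genes there. Its difference between the lines, 1.02 ± 0.27 (SE, limma adjusted p = 0.0247), was lost without any 1 of 5 libraries: vehicle replicate 2 (0.87) or myricone C replicate 1 (0.93) of 23132/87, or vehicle replicate 2 (0.99), vehicle replicate 3 (0.89) or myricone C replicate 3 (0.90) of SW48. The HSPB1 pseudogene HSPB1P1 was the only 1 of 35 annotated pseudogenes of these families listed in either table, at 4.42 to 11.6 in SW48.

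Of the 2 cytosolic HSP90 genes, the inducible one had the more negative change in both lines, a contrast that was not tested. HSP90AA1 (ENSG00000080824, chr14:102080738-102139699) encodes the stress-inducible form, and HSP90AB1 (ENSG00000096384, chr6:44246166-44253888) the form that cells make steadily. HSP90AA1 read 1010.1, 917 and 911 in vehicle and 252, 272 and 276 in treated 23132/87 cells, a change of -1.82 ± 0.10 (SE, limma adjusted p = 3.03e-06). HSP90AB1 read 952, 976 and 957 in vehicle and 474, 481 and 472 when treated, a change of -1.01 ± 0.10 (SE, limma adjusted p = 4.5e-05). Both sets of libraries were tight and far apart, with 28.2% of the vehicle mean left for HSP90AA1 and 49.5% for HSP90AB1.

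In SW48, HSP90AA1 went from 1006, 954 and 1172 to 793, 681 and 527, a change of -0.66 ± 0.15 (SE, limma adjusted p = 0.00803). HSP90AB1 read 885, 808 and 988 in vehicle and 816, 831 and 771 when treated, with overlapping groups and a change of -0.14 (interval -0.39 to 0.10, limma adjusted p = 0.361). The ratio of HSP90AA1 to HSP90AB1 went from 0.984 ± 0.067 to 0.560 ± 0.027 in 23132/87 and from 1.17 ± 0.028 to 0.825 ± 0.145 in SW48 (SD, n = 3), without overlap in either line and without a test. The difference between the lines was 1.16 ± 0.19 for HSP90AA1 (SE, limma adjusted p = 0.00172) and 0.87 ± 0.14 for HSP90AB1 (SE, limma adjusted p = 0.00137).

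**Figure D2:**
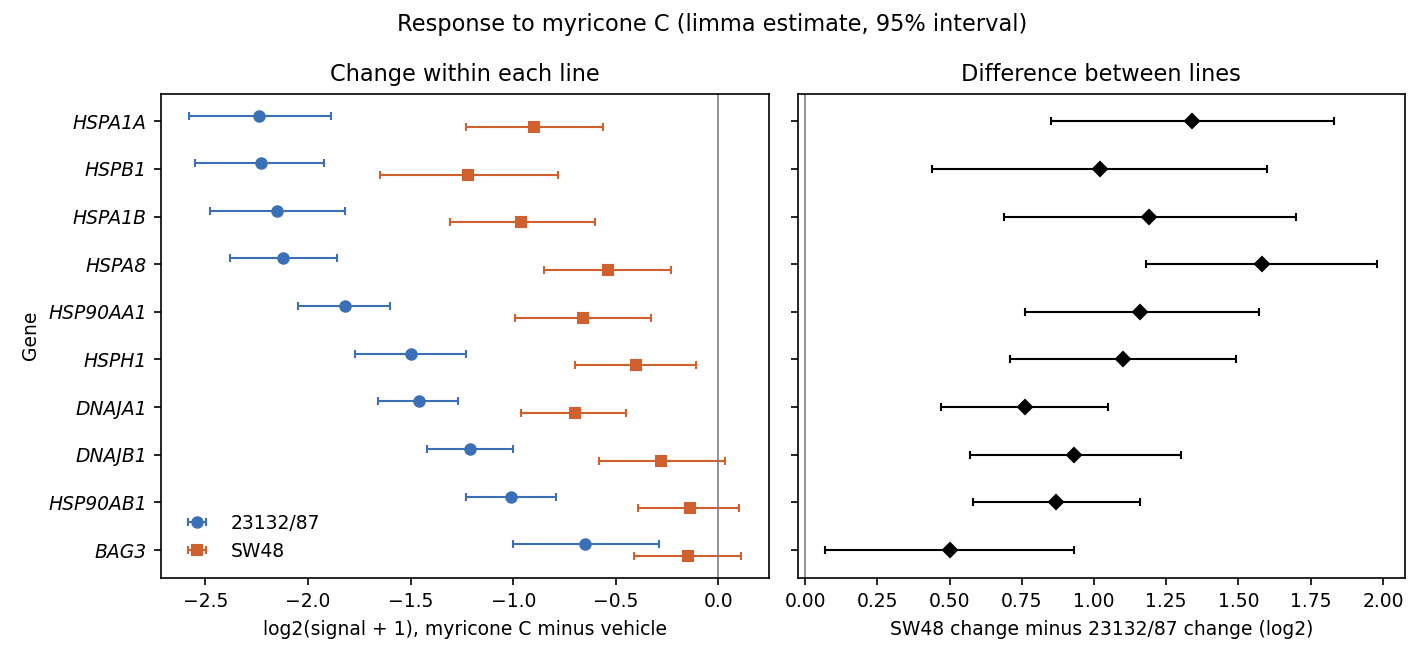
Change of each member on the log2(value + 1) scale, myricone C minus vehicle, in 23132/87 and SW48 (left), and the SW48 change minus the 23132/87 change (right), with bars for the 95% interval of limma, which is not adjusted over genes. The 23132/87 points lie between -2.24 and -0.65 and the SW48 points between -1.22 and -0.14, and the SW48 intervals of DNAJB1, HSP90AB1 and BAG3 reach past 0.

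The J-domain genes, which deliver substrates to HSP70, both fell in 23132/87. DNAJB1 (ENSG00000132002, chr19:14514770-14529770), the J-domain protein HSP40 that works with inducible HSP70, read 111, 116 and 111 in vehicle and 43.9, 49.1 and 51.9 in treated 23132/87 cells. The change was -1.21 ± 0.09 (SE, limma adjusted p = 1.13e-05). In SW48 it read 51.7, 51.7 and 64.1 in vehicle and 46.2, 52.7 and 39.2 when treated, a change of -0.28 (interval -0.58 to 0.03, limma adjusted p = 0.158) with overlapping groups.

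DNAJA1 (ENSG00000086061, chr9:33025211-33039907), another J-domain partner of HSP70, fell in both lines. It read 166, 168 and 164 in vehicle and 60.4, 56.3 and 62.2 in treated 23132/87 cells, a change of -1.46 ± 0.09 (SE, limma adjusted p = 3.19e-06). In SW48 it went from 120.3, 124 and 139 to 81.4, 83.0 and 69.7, a change of -0.70 ± 0.12 (SE, limma adjusted p = 0.00127). No libraries of the vehicle and treated groups overlapped. The differences between the lines were 0.93 ± 0.17 for DNAJB1 (SE, limma adjusted p = 0.00318) and 0.76 ± 0.14 for DNAJA1 (SE, limma adjusted p = 0.00301). The ratio of DNAJB1 to HSPA8 was higher with myricone C in both lines, at 0.0953 ± 0.0021 and 0.178 ± 0.0098 in 23132/87 and 0.0506 ± 0.0028 and 0.0606 ± 0.0046 in SW48 (SD, n = 3, vehicle and treated, no overlap, without a test).

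HSPH1 and BAG3 act as nucleotide exchange factors of HSP70. HSPH1 (ENSG00000120694, chr13:31134974-31162388), the HSP110 chaperone, read 27.7, 35.6 and 34.3 in vehicle and 11.2, 10.1 and 11.2 in treated 23132/87 cells, a change of -1.50 ± 0.12 (SE, limma adjusted p = 1.22e-05). In SW48 it went from 38.2, 38.6 and 48.5 to 35.3, 30.5 and 28.0, a change of -0.40 ± 0.14 (SE, limma adjusted p = 0.0444). The SW48 groups lay apart by a small margin. That call was lost without vehicle replicate 1 (-0.46), 2 (-0.46) or 3 (-0.29), or without myricone C replicate 2 (-0.39) or 3 (-0.33). It was also lost under quantile normalization (-0.31), median-centred scaling (-0.36), rescaling (-0.34) and limma without a trend (-0.40). The difference between the lines was 1.10 ± 0.18 (SE, limma adjusted p = 0.00181).

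BAG3 (ENSG00000151929, chr10:119651370-119677819), which also links HSP70 to small heat shock proteins and to autophagy, moved least in 23132/87. It read 17.2, 18.0 and 15.5 in vehicle and 13.1, 10.7 and 8.01 when treated, a change of -0.65 ± 0.16 (SE, limma adjusted p = 0.00824). In SW48 it read 17, 18.2 and 17.8 in vehicle and 14.9, 17.3 and 15.4 when treated, a change of -0.15 (interval -0.41 to 0.11, limma adjusted p = 0.377) with overlapping groups. Its difference between the lines, 0.50 (interval 0.07 to 0.93, limma adjusted p = 0.112), did not pass the test over all genes, but passed it without 23132/87 myricone C replicate 1 (0.65, limma adjusted p = 0.0314).

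Levels without the compound, read from the separate tables and not tested, were far apart for some members and close for others. Vehicle means in 23132/87 and SW48 were 225 and 45.7 for HSPA1A, 208 and 75.9 for HSPA1B and 113 and 55.8 for DNAJB1. HSP90AA1 (946 and 1044), HSP90AB1 (962 and 894), HSPA8 (1183 and 1106) and BAG3 (16.9 and 17.7) lay close to each other. DNAJA1 (166 and 128), HSPB1 (153 and 204) and HSPH1 (32.5 and 41.8) lay between these. HSPA1A and HSPA1B had the higher vehicle level in 23132/87 and also the larger response there, with differences between the lines of 1.34 ± 0.23 (SE, limma adjusted p = 0.00223) and 1.19 ± 0.24 (SE, limma adjusted p = 0.00537). A more negative change in 23132/87 was seen for 10 of 10 members, and the difference was called for 9, not for BAG3. HSPA8 and HSP90AA1, with close levels, differed by 1.58 and 1.16. HSPH1 and HSPB1, with lower levels in 23132/87, differed by 1.10 and 1.02. A link of level to response was not tested.

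The 10 genes together took 0.768% ± 0.032 of the summed values of vehicle 23132/87 libraries and 0.258% ± 0.001 of treated ones (SD, n = 3). In SW48 the share was 0.690% ± 0.054 in vehicle and 0.520% ± 0.061 in treated libraries. The 3 treated 23132/87 libraries lay between 0.258% and 0.259%, while the treated SW48 libraries read 0.561%, 0.549% and 0.450%. Without SW48 myricone C replicate 1, the members called lower in SW48 still numbered 7 (median -0.67), and the difference was called for 9 (median 0.96).

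Changes of members with the 3-unit heat shock element in a window are set beside those of the others without a test. In 23132/87 the 4 members with it had a median change of -1.64 (from -2.12 to -1.01), and the 6 without it -1.83 (from -2.24 to -0.65). In SW48 the medians were -0.60 (from -0.70 to -0.14) and -0.65 (from -1.22 to -0.15). HSPA8 and HSP90AB1 each hold 2 such matches and changed by -2.12 and -1.01 in 23132/87.

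**Figure D3:**
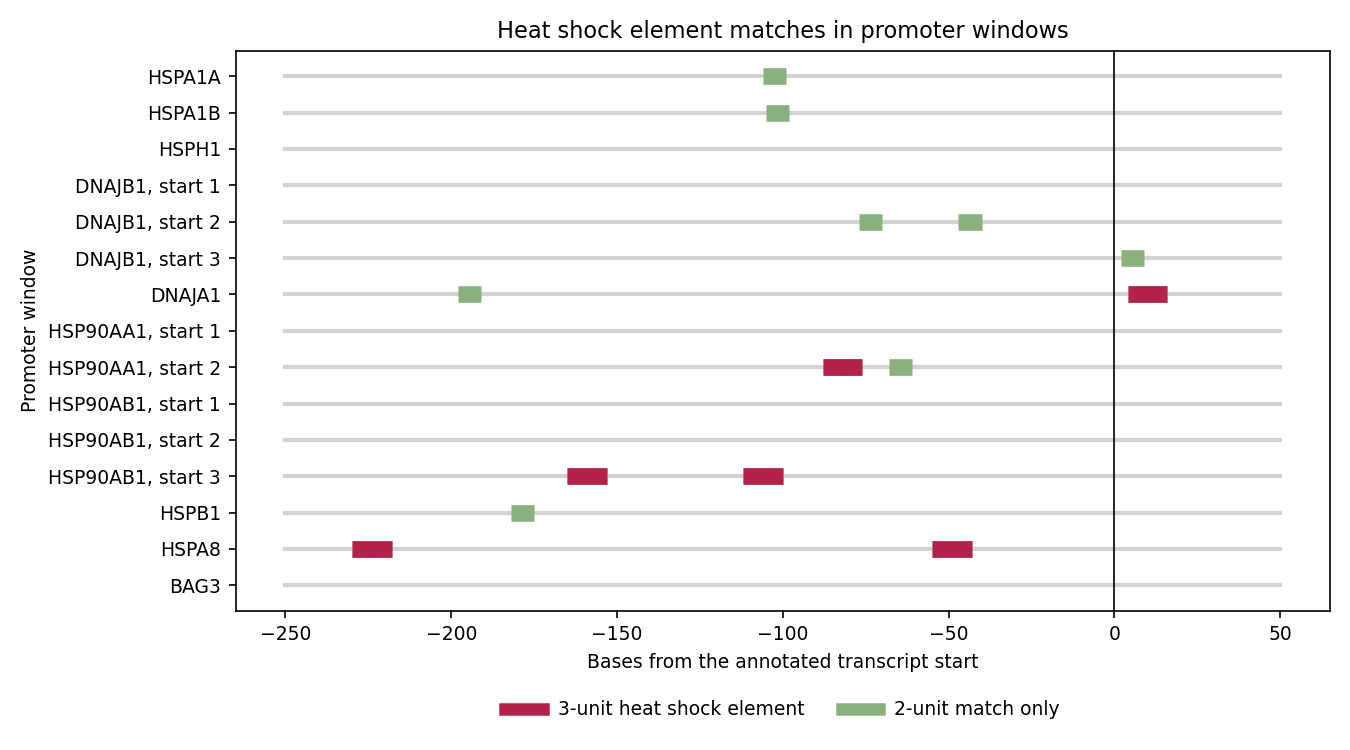
Positions of 3-unit and 2-unit heat shock element matches in the RefSeq promoter windows of the 10 members, as distance in bases from each annotated start. DNAJA1, HSP90AA1, HSP90AB1 and HSPA8 hold the 3-unit motif, and HSPH1 and BAG3 hold no match.

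The chaperones that work with the members were read from fixed lists. Cytosolic HSP90 co-chaperones, which load or tune HSP90, fell for 12 of 14 genes in 23132/87 (median -0.73) and 7 of 14 in SW48 (median -0.35), and none rose in either line. The shares of all genes called lower, 23.2% in 23132/87 and 19.2% in SW48, are the background for this and the next lists, and those called higher were 23.3% and 10.1%. FKBP5, a peptidyl-prolyl isomerase of steroid receptor complexes, changed by -1.37 ± 0.14 in 23132/87 and -0.56 ± 0.14 in SW48 (SE). Its level went from 5.12 ± 0.831 to 1.35 ± 0.153 in 23132/87 and from 16.0 ± 2.0 to 10.5 ± 0.838 in SW48 (SD, n = 3). The treated 23132/87 values lay near the lowest listed values, about 1. The size of that change therefore depends on the 1 added before taking logs. With 5 added instead, the FKBP5 difference between the lines was 0.24 and not called, against 0.82. NUDC, an HSP90-binding protein of dynein complexes, changed by -1.28 ± 0.09 and -0.49 ± 0.13 (SE). FKBP5 and NUDC passed the test in both lines, and in SW48 the calls were lost without vehicle replicate 3 for both (-0.47 and -0.46) and without vehicle replicate 1 for NUDC (-0.41). CACYBP, a partner of the SIAH1 ubiquitin ligase, changed by -0.60 in SW48, a call lost on leaving out any vehicle library or the first or second treated library (values from -0.66 to -0.46).

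Another list held further HSP70, HSP110, J-domain and small heat shock genes, not all of them cytosolic. Of its 23 genes, 15 were listed in 23132/87 and 16 in SW48. Of these, 8 fell and 3 rose in 23132/87 (median -0.27), and 3 fell and 1 rose in SW48 (median -0.11), which in SW48 is near the shares over all genes. The nuclear J-domain gene DNAJC9, a histone chaperone, went from 36.6 ± 0.66 to 15.1 ± 0.73 in 23132/87 and from 48.8 ± 5.62 to 30 ± 1.72 in SW48 (SD, n = 3), and fell in both. HSPA14, a ribosome-associated HSP70, fell in 23132/87, from 25.7 ± 2.41 to 11.0 ± 0.57, and read 15.8 ± 1.44 and 13.3 ± 2.25 in SW48 with overlapping groups. DNAJB2, a J-domain gene, rose in 23132/87 by 0.72 ± 0.13 and read -0.23 ± 0.14 in SW48 (SE), so the list held changes in both directions. The stress gene HSPA6 was not listed in either table. Of HSP70 regulators, 3 of 7 listed fell in 23132/87 and 1 of 8 in SW48, and none rose, so the SW48 share was below the 19.2% of all genes. ST13, the HSP70-interacting protein HIP, changed by -0.52 ± 0.09 in 23132/87 and by -0.30 ± 0.10 in SW48 (SE), where leaving out any of the 6 libraries ended the call.

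Other genes that HSF1 is known to control went both ways. HSPD1 and HSPE1 of this list are also counted with the mitochondrial chaperones, and TCP1 with the chaperonin. Of 13 listed in 23132/87, 7 fell and 2 rose (median -0.59), and of 12 in SW48, 5 fell and 3 rose (median -0.15). HSPE1, the mitochondrial co-chaperonin HSP10, went from 571 ± 26.6 to 179.7 ± 40.9 in 23132/87 and from 328 ± 64.7 to 163 ± 20.7 in SW48 (SD, n = 3). ZFAND2A, an arsenite-inducible proteasome adaptor, rose by 1.46 ± 0.11 and 1.05 ± 0.24 (SE). HSPE1 fell and ZFAND2A rose in both lines. IER5, a gene that supports HSF1 activity, fell in SW48 by 0.87 on the log2 scale and read -0.08 in 23132/87. KLHL21, a CUL3 adaptor, rose in SW48 by 1.04 and read 0.08 in 23132/87, where its sign turned without vehicle replicate 3 (-0.04) or myricone C replicate 1 (-0.07).

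The HSF1 transcript was not among those that fell. It read 52.4, 48.9 and 36 in vehicle and 55.3, 65.2 and 56.5 in treated 23132/87 cells, a change of 0.37 ± 0.14 (SE, limma adjusted p = 0.0518). In SW48 it read 24.6, 21.8 and 23.3 in vehicle and 25.1, 27.0 and 29.6 when treated, a change of 0.22 ± 0.12 (SE, limma adjusted p = 0.187). Treated libraries lay above vehicle libraries in both lines although neither change was called, and the 23132/87 change was called without vehicle replicate 1 (0.48), under quantile normalization (0.48), under rescaling (0.46) and with all 12 libraries in one fit (0.37). HSF2, a related factor, changed by 0.12 ± 0.14 and -0.20 ± 0.14 (SE), and neither change was called. HSBP1, whose small protein binds HSF1 and limits its activity, fell in both lines, from 60.6 ± 8.70 to 26.5 ± 4.24 and from 34.8 ± 4.01 to 17.4 ± 3.41 (SD, n = 3). mRNA levels say nothing of the activity or location of the HSF1 protein.

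The counterparts of the members in the endoplasmic reticulum (ER) went the other way. Of 10 ER chaperones and co-chaperones, 10 rose in 23132/87 (median 0.89, where 23.3% of all genes were called higher) and 9 in SW48 (median 0.61, against 10.1%). HSPA5, the HSP70 of the ER known as BiP, read 239, 239 and 239.7 in vehicle and 1163, 776 and 707 in treated 23132/87 cells. In SW48 it read 324, 398 and 325 in vehicle and 796, 1444 and 1674 when treated, and its change was 1.84 in each line (SE 0.17 and 0.23). The ratio of HSPA5 to HSPA8 thus went from 0.202 ± 0.0086 to 3.33 ± 1.34 in 23132/87 and from 0.323 ± 0.082 to 1.78 ± 0.818 in SW48 (SD, n = 3). On the deposited scale, each vehicle library of 23132/87 had less HSPA5 than HSPA8 signal and each treated one had more, a comparison of levels that holds only if the values are per length.

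The HSP110 and HSP90 pairs were compared in the same way. HYOU1, the ER relative of HSPH1, rose by 1.70 ± 0.12 in 23132/87 and 1.21 ± 0.20 in SW48 (SE), and its ratio to HSPH1 went from 2.10 ± 0.323 to 20.6 ± 2.80 and from 1.51 ± 0.402 to 4.84 ± 1.98 (SD, n = 3). HSP90B1, the HSP90 of the ER, rose by 0.69 ± 0.14 and 0.41 ± 0.13 (SE). Its SW48 call was lost without vehicle replicate 1 (0.35) or 3 (0.41), or without myricone C replicate 2 (0.35) or 3 (0.36). The ratio of HSP90B1 to the sum of the cytosolic HSP90 genes went from 0.193 ± 0.0093 to 0.813 ± 0.173 in 23132/87 and from 0.217 ± 0.040 to 0.384 ± 0.083 in SW48 (SD, n = 3). None of these ratios overlapped between groups, and none was tested.

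**Figure D4:**
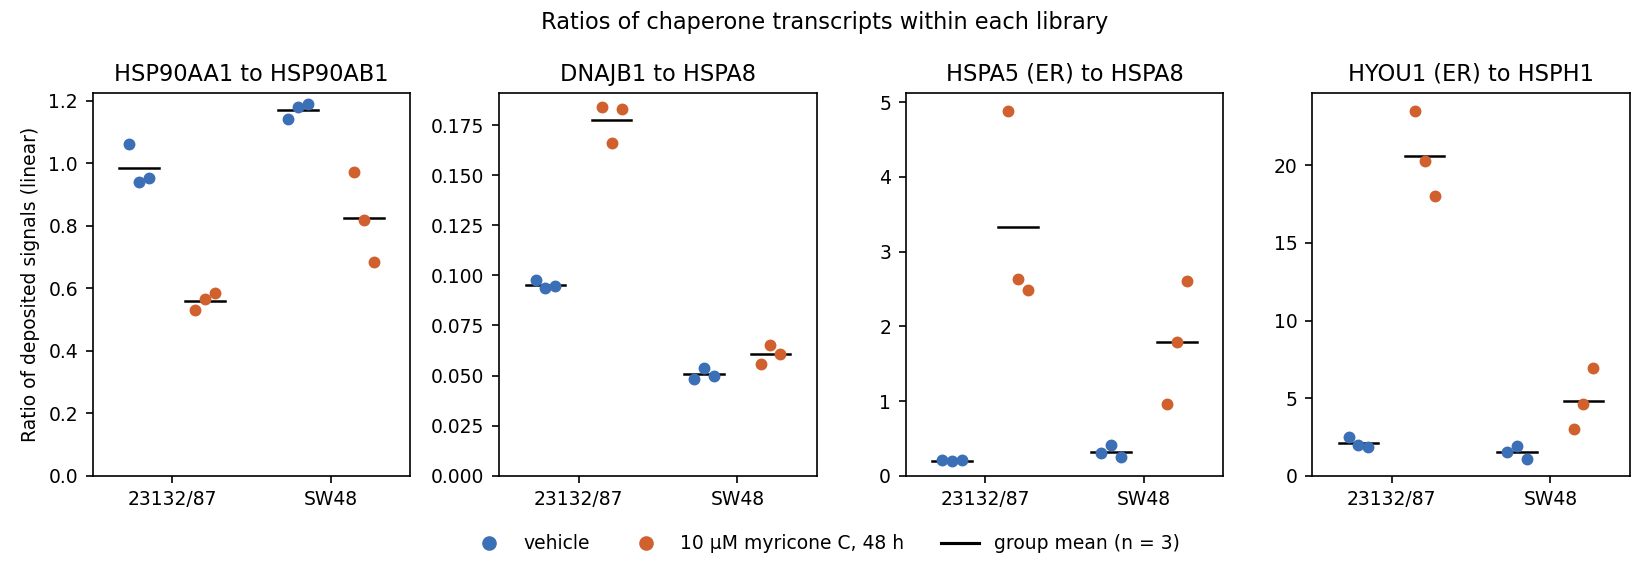
Ratios of deposited signal in each of the 12 libraries, on linear axes from 0, for HSP90AA1 to HSP90AB1, DNAJB1 to HSPA8, HSPA5 to HSPA8 and HYOU1 to HSPH1, with a bar at each group mean (n = 3). The ratio of HSPA5 to HSPA8 lies between 0.193 and 0.209 in vehicle and between 2.49 and 4.88 in treated 23132/87 libraries.

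Mitochondrial chaperones were mixed, with 3 of 9 lower and 3 of 9 higher in 23132/87 (median -0.03) and 1 lower and 3 higher in SW48 (median 0.11), against 23.2% lower and 23.3% higher of all genes in 23132/87 and 19.2% and 10.1% in SW48. HSPA9, the mitochondrial HSP70, rose from 193 ± 29.7 to 397 ± 78.3 in SW48 and from 259 ± 5.67 to 319.5 ± 9.08 in 23132/87 (SD, n = 3). The smaller change in 23132/87, 0.30, was no longer called on leaving out vehicle replicate 1 (0.29), vehicle replicate 2 (0.31), myricone C replicate 2 (0.32) or myricone C replicate 3 (0.28), or with all 12 libraries in one fit (limma adjusted p = 0.0899). TRAP1, the mitochondrial HSP90, fell in 23132/87 by 0.70 ± 0.11 and read -0.17 ± 0.12 in SW48 (SE). HSPD1, the mitochondrial chaperonin HSP60, fell in 23132/87 by 0.85 on the log2 scale and read 0.03 in SW48, with a called difference of 0.89 ± 0.16 (SE, limma adjusted p = 0.0025).

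Of the chaperonin CCT and its partner prefoldin, which fold actin and tubulin, 9 of 14 genes fell and 1 rose in 23132/87 (median -0.56), and 3 fell and 1 rose in SW48 (median -0.20), where 19.2% of all genes were called lower, so the SW48 count was near the background. CCT5 went from 299 ± 11.6 to 151 ± 12.8 and CCT3 from 458 ± 18.0 to 233 ± 14.0 in 23132/87 (SD, n = 3). The SW48 values of CCT5 were 132 ± 18.5 and 113 ± 5.04, with overlapping groups. PFDN2, a prefoldin subunit, was the gene that rose in each line, by 1.05 ± 0.11 and 0.64 ± 0.17 (SE). It no longer passed in SW48 on leaving out vehicle replicate 2 (0.55), vehicle replicate 3 (0.63) or myricone C replicate 3 (0.48).

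**Figure D5:**
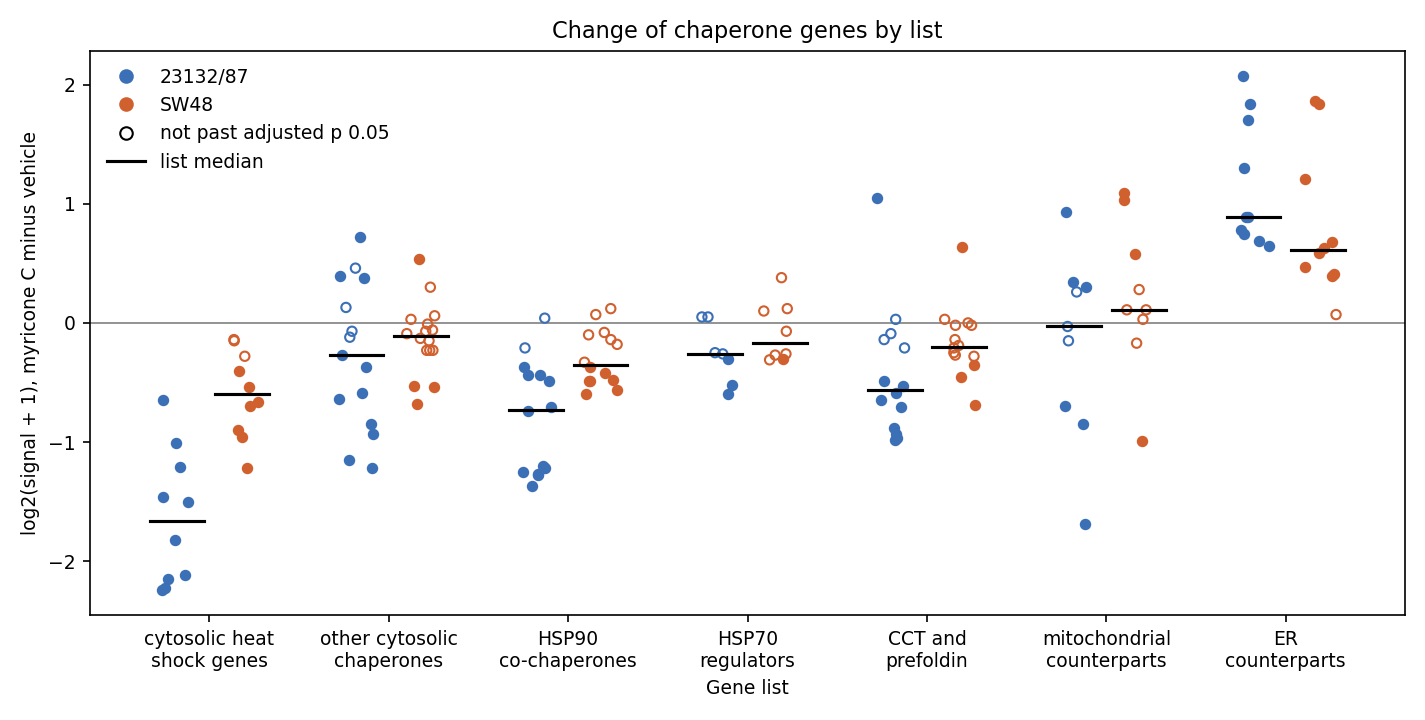
Change of every listed gene of the members and of 6 other chaperone lists, on the log2(value + 1) scale, in 23132/87 and SW48, with open points for genes that did not pass the test and a bar at each list's median. The members' medians are -1.66 and -0.60, and the ER genes' medians are 0.89 and 0.61.

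Outside the members, the genes whose profile over the 12 libraries lay nearest to the members' median profile were not chaperones. Distances were computed for 5584 genes with a mean of at least 10 in each line, and the members were left out of the ranking. By root mean square difference on the log2 scale, the 5 nearest non-members were RFC5 (0.128), DNMT1 (0.140), PRPS2 (0.145), SFPQ (0.156) and DSCC1 (0.157). They act in clamp loading, DNA methylation, nucleotide precursor synthesis, splicing and sister chromatid cohesion. RFC5 changed by -1.58 in 23132/87 and -0.66 in SW48. Among the members themselves that distance ran from 0.112 for HSP90AA1 to 0.581 for BAG3, and 7 of the 10 members lay farther from the median profile than these 5 genes. DNAJA1 (0.128) and HSPH1 (0.149) lay within the range of the 5 genes, and HSP90AA1 lay nearer. Each member helped set the median profile, so the members' distances are not on equal terms with those of the 5 genes. These 5 genes were picked for their likeness, and their values are a description.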

How the data were processed

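A stranded mRNA kit was used for the 12 libraries, per the labels' protocols. The submitters' processing notes list FastQC and STAR, without versions, and GRCh38. How reads were counted, with what strand setting and in what unit, is not given in the sources used here. Per line, 1 table of gene signal was deposited, whose values resemble FPKM or TPM and which lists genes at about 1 or above in every library. Depth is therefore unknown, and its precision could not be computed. Values were taken as log2(value + 1), and genes averaging 1 or more were tested with limma 3.58.1 in R 4.3.3 with a trend. The fit of a line used its 6 libraries. The contrast of the lines was the interaction term over all 12. Intervals are 95% intervals.

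Titles and column names number the treated SW48 libraries differently, and titles were followed. No block was used. The members, 8 lists and alternatives were chosen with earlier results of these data known. The naming rule took the members, 8 fixed regulators and organelle counterparts, and the 2 steepest called rises and falls of each other list and line. It also took the 5 genes outside the members that were most like them, which are described without tests or alternatives. Some of the genes it names are not reported here. Alternatives were other scalings, pseudocounts 0.1 and 5, filters, no trend, replicate blocks, one joint fit and leaving out each library. A genome-wide comparison of response by promoter motif was not made, because under 80% of listed genes matched the promoter table. Tested on simulated data, the fit recovered 83.3%, 84.5% and 80% of genes changed by 1 on the log2 scale in 23132/87 (11065 genes), SW48 (11549 genes) and the difference (10259 genes). Of genes changed by 0.5 it recovered 24.0%, 13.8% and 20.7%, so most changes of that size were missed there. Unchanged genes made up 1.55%, 6.16% and 4.51% of its calls. The simulation changed 200 genes per line, far fewer than were called in the data. The adjusted p therefore set a stricter cutoff there, and these shares do not measure the power of the real tests.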

Additional observations from a re-analysis of the deposited data

Results flagged for a closer look

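The response to myricone C differed between the lines for 21 of the 43 named genes, by the line-by-treatment term in limma at an adjusted p under 0.05. Of all 10264 genes tested for that term, 12.7% were called. Many named genes outside the members were picked for steep called changes in these same data, so 21 of 43 is not a measure of excess. Values are the SW48 change minus the 23132/87 change on the log2 scale. Of the cytosolic heat shock genes 9 of 10 were called for that term, with HSPA8 at 1.58, HSPA1A at 1.34, HSPA1B at 1.19, HSP90AA1 at 1.16, HSPH1 at 1.10, HSPB1 at 1.02, DNAJB1 at 0.93, HSP90AB1 at 0.87 and DNAJA1 at 0.76. Among the other HSP70 and J-domain genes and the HSP90 co-chaperones the values were 0.92 for HSPA14, 0.82 for FKBP5, 0.78 for NUDC, 0.54 for DNAJC9 and -0.95 for DNAJB2. MRPS6 and KLHL21 both stood at 0.96, and IER5 stood at -0.79. In the mitochondrial and chaperonin lists, HSPD1 stood at 0.89, CCT5 at 0.77, HSPA9 at 0.73 and CCT3 at 0.69. The differences of DNAJC9, HSPA9, KLHL21 and HSPB1 were each lost on leaving out any 1 of 5 or more of the 12 libraries, and that of FKBP5 was 0.24 and not called with a pseudocount of 5.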

How the results depend on the processing

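The 10 members kept a negative change in each line under every alternative run, and 10 of 10 stayed called in 23132/87. The median in 23132/87 was -1.60 when values were rescaled without mitochondrial pseudogenes, 7SL and small nuclear RNA, and -1.61 with a pseudocount of 5, against -1.66. Members called in SW48 numbered 6 under quantile normalization, median-centred scaling, rescaling, no trend or the replicate block by titles, and 4 with the replicate block by column numbers, where HSPH1, HSP90AA1 (-0.52) and HSPA8 (-0.44) were lost. By column number, SW48 vehicle replicate 1 and myricone C replicate 3 have no partner. The SW48 changes with that block therefore rest on 2 pairs. Genes called in the difference numbered 1306, but 812 with at least 10 in at least 3 libraries, where fewer genes were tested, and 770 with the replicate block. The cause of the latter was not tested. With the block by titles HSF1 was called in 23132/87 (0.37, limma adjusted p = 0.0482) and HSPA9 was not (0.30, limma adjusted p = 0.0713). Deviations of same-numbered libraries correlated at -0.27 to 0.112 by title, so titles were not taken to pair the samples. The 2 pairs that share a column number in SW48 correlated at 0.152 and 0.271, above its other pairs (-0.175 to 0.132). In 23132/87, where both numberings agree, a pair of unlike numbers reached 0.359. Whether column numbers pair the SW48 samples is not known, and the main fit used no block.

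Leaving out 1 library gave 10 to 10 members and 3959 to 4888 genes called in 23132/87 (median -1.69 to -1.65), and 5 to 7 members and 2199 to 3656 genes in SW48 (median -0.68 to -0.46, fewest genes without myricone C replicate 2). For the difference it gave 8 to 9 members and 830 to 1412 genes (median 0.96 to 1.13, fewest genes without SW48 vehicle replicate 2). Of calls in SW48, 34.6% were rises, against 46.2% under quantile normalization and 46.4% rescaled. In the difference 41.9% had the SW48 change above, against 53.5% under quantile normalization and 57.2% median-centred.

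Sign changes were found among changes that were not called. In 23132/87, PFDN5 turned to 0.04 (quantile) and 0.02 (myricone C replicate 1 left out; range -0.26 to 0.02 over libraries left out), and KLHL21 to -0.04 and -0.07 (vehicle replicate 3 or myricone C replicate 1 left out; range -0.07 to 0.22). In SW48, MRPS6 turned to 0.08 (quantile), 0.03 (median-centred), 0.05 (rescaled) and, with vehicle replicate 3 (0.02), myricone C replicate 1 (0.04) or 3 (0.04) left out, in a range of -0.13 to 0.04, and HSPD1 to -0.01 (quantile), -0.08 (vehicle replicate 2 left out) and -0.01 (myricone C replicate 2 left out), in a range of -0.08 to 0.15. In the difference, DAXX turned to 0.00 and HSPA5 to 0.08 (median-centred), HSF1 to 0.01 and DNAJC8 to -0.03 (without 23132/87 vehicle replicate 3), and HSPA5 to 0.21, DNAJC8 to -0.03 and DNAJB9 to 0.07 (without 23132/87 myricone C replicate 1). HSPA5 turned to 0.09 without SW48 vehicle replicate 2 and to 0.32 without SW48 myricone C replicate 1, where DNAJB9 turned to 0.10. Over libraries left out, these differences ranged from -0.26 to 0.01 for HSF1, -0.22 to 0.32 for HSPA5 and -0.03 to 0.13 for DNAJC8. The causes were not tested. Without counts, what depth limits could not be computed.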
